A study of Mus musculus with 4 samples.

Results

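The genes described here build the desmosome, the adhesive junction that holds keratinocytes together in epidermis and hair follicle. Of 10 genes chosen by name, 9 had probe sets on the array that the platform annotation gives to them alone: the desmogleins Dsg1a, Dsg1b and Dsg2, the desmocollins Dsc1, Dsc2 and Dsc3, plakoglobin (Jup), desmoplakin (Dsp) and plakophilin 1 (Pkp1). The remaining gene, Dsg3, had none listed with it alone and is not analysed here. The 9 genes are among 18193 with such a probe set, and they have 19 probe sets between them. Dorsal skin of male C57B6 mice was sampled in mid telogen, at postnatal day 54 (P54), and in late telogen, at postnatal day 59 (P59), with 2 Affymetrix arrays at each age. All 4 samples are of whole shaved skin from the same strain and sex, and the labels name no treatment or mutation. The question is whether desmosomal transcripts differ between samples labelled as the middle and the end of telogen, the hair follicle's resting phase. The labels call the samples biological replicates without saying how many mice made up each, so p-values measure the spread between these samples alone.

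Desmosomes join neighbouring cells through 2 families of calcium-dependent cadherins, the desmogleins and desmocollins, whose tails bind plakoglobin and plakophilins. These armadillo-repeat proteins bind desmoplakin, and desmoplakin holds the keratin filaments. In stratified epithelium the cadherins are known to be graded: Dsg1 and Dsc1 prevail in the upper layers, Dsg3 and Dsc3 in the lower ones, while Dsg2 and Dsc2 are the widespread forms, found also in simple epithelia and the heart. Desmogleins matter in telogen, since mice that lack Dsg3 shed their resting hairs. The 3 desmocollin genes and the desmogleins of the mouse neighbour each other in 1 cluster, in the order Dsc3, Dsc2, Dsc1, Dsg1c, Dsg1a, Dsg1b, Dsg4, Dsg3 and Dsg2.

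Values are log2 intensities of the brightest probe set of each gene, and the small number of arrays, 2 per age, limits the precision. Values of an age are given for replicate 1 and then replicate 2. A probe set's level cannot be set against another's, so genes are compared only by how they differ between arrays. The tissue label was checked with keratins of the epidermis. Krt5 and Krt14 of basal cells lay between 12.91 and 13.74 on the 4 arrays, and Krt1 and Krt10 of the layers above between 12.71 and 14.14. These values lie well above the intensity filter of 6.58, below which genes were not tested. The 4 arrays were not alike in quality. P59 replicate 2 stood apart, with a Spearman correlation across genes of 0.915 to 0.938 with the other arrays, which reached 0.953 to 0.976 among themselves. Control probe sets of the array maker read the 5′ and 3′ ends of the same transcript. For Gapdh the 3′ set exceeded the 5′ set by 0.20 to 0.34 (log2) on the other 3 arrays and by 4.57 on P59 replicate 2. For Actb the excess was 0.18 to 0.52 on the other 3 arrays and 1.64 on P59 replicate 2. The control sets of a ribosomal RNA and Pcx gave 1.71 and 3.50 on P59 replicate 2, against 1.55 to 1.66 and 2.51 to 3.34 on the others. Those of Tfrc gave 1.04 there against 1.74 to 1.98. The control sets of the ribosomal RNA and Tfrc all read below 6.58, and the 5′ set of Pcx read 5.84 to 7.04. These 3 controls are therefore less informative than Gapdh and Actb. What the state of this RNA contributes to any difference below was not tested.

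Across the 9 genes the difference between the 2 ages was negative for 7 and positive for Dsg1b and Dsc2. It ran from -0.56 for Dsg2 to 0.32 for Dsg1b, with a median of -0.13. The intervals of limma were wide and reached -1.10 for Dsg2, -1.03 for Jup and 0.89 for Dsg1b. These data therefore cannot show that the ages were alike. Over all 10916 genes tested the median was 0.049, and 4540 genes were lower at P59 and 6376 higher. None of the 9 passed an adjusted p of 0.05 in limma, a threshold that 2 genes, or 0.0183% of those tested, did pass. At an unadjusted p under 0.05 the count was 1 of 9, Dsg2, where 3.01% of all genes were lower at P59 by that limit, and 0 of 9 were higher, against 3.47%. For Dsg2, Dsc3, Dsp and Pkp1 both P59 arrays lay below both P54 arrays, 4 of 9 where 14.8% of all genes did so, and 0 of 9 lay wholly above, against 18.9% of all genes. With 2 arrays per age, a two-sided exact permutation test has 0.333 as its smallest possible p. The count of 7 lower genes was 8 without P59 replicate 2 or P54 replicate 2, when 50.4% or 55.2% of all genes were lower. It was 5 without P59 replicate 1 or P54 replicate 1, when 36.8% or 35.4% of all genes were lower. With each array centred on its median it was 5 of 9, since Dsg1a and Dsc1 turned positive, with 34.6% of all genes lower in place of 41.6%. All 9 genes had a mean above the filter.

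**Figure D1:**
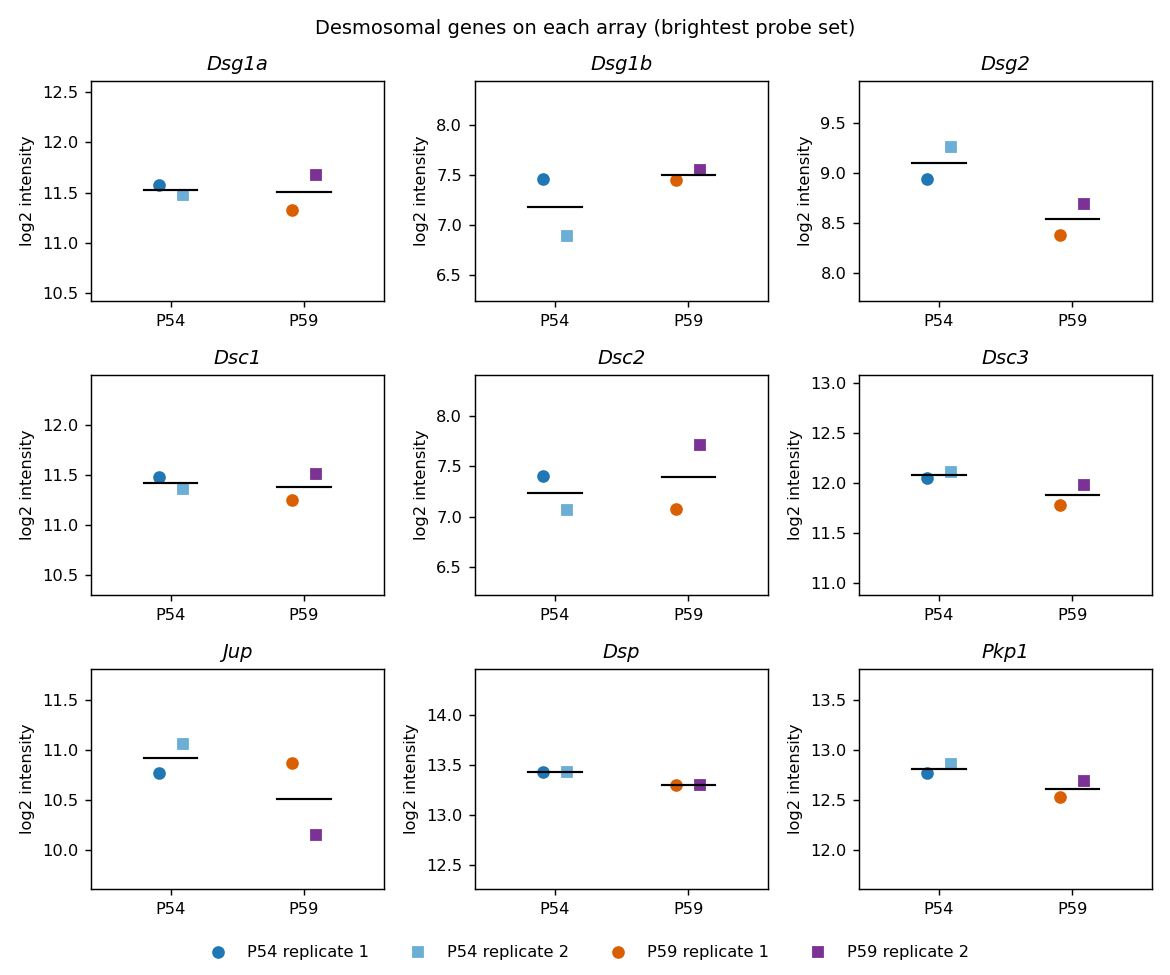
Log2 intensity of the brightest probe set of each desmosomal gene (vertical axes, all spanning the same range) at P54 and P59, with 1 point per array and a bar at the mean of each age. The P59 points of Dsg2 lie below both P54 points, Dsp repeats closely within each age, and Jup is low in P59 replicate 2 alone.

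Dsg2, the widespread desmoglein, had the largest difference. P54 replicate 1 gave 8.94 and P54 replicate 2 gave 9.26, against 8.38 in P59 replicate 1 and 8.69 in P59 replicate 2. The higher P59 array was thus below the lower P54 array, by less than the gap between the arrays of either age. Group means were 9.10 ± 0.23 and 8.54 ± 0.22 (SD, n = 2 per age), which is 1.48-fold lower at P59. In limma the difference was -0.56 (SE 0.24, 95% interval -1.10 to -0.026), with an unadjusted p of 0.0416 and an adjusted p of 0.755. Dsg2 has 6 probe sets, of which 3 have a mean above the filter. The difference was negative in 6 of 6, from -0.73 to -0.11.

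In the brightest 3 of the Dsg2 sets the arrays of the 2 ages did not overlap. The second brightest read 8.23 and 8.63 on the P54 arrays against 7.85 and 7.56 on the P59 arrays, a difference of -0.73. The third read 7.002 and 6.83 on the P54 arrays against 6.48 and 6.41 on the P59 arrays, a difference of -0.47. This set has a mean above the filter through P54 alone, since both its P59 values are below 6.58, so it is given as a description. In the 3 dimmer sets, with means between 3.90 and 6.49 and so below the filter, the arrays of the 2 ages overlapped. Their differences were -0.25, -0.11 and -0.14. In the brightest set each P59 array alone gave a negative difference, -0.72 without P59 replicate 2 and -0.41 without P59 replicate 1. The probe sets share the same 4 RNA samples and are not further replicates.

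The remaining desmogleins, Dsg1a and Dsg1b, are close copies that bind cells of the upper epidermis to each other. Whether signal of either copy reaches probes of the other was not tested, so their separate values are uncertain. Dsg1a read 11.58 and 11.47 on the P54 arrays against 11.33 and 11.68 on the P59 arrays. Its P59 arrays enclosed the P54 arrays, and the difference was -0.023 (SE 0.24, 95% interval -0.55 to 0.50, adjusted p = 0.999 in limma). Dsg1b read 7.46 and 6.90 on the P54 arrays against 7.45 and 7.56 on the P59 arrays. The P54 replicates lay 0.57 apart, more than the difference of 0.32 between ages (95% interval -0.24 to 0.89, adjusted p = 0.922 in limma). With P54 replicate 2 left out that difference was 0.042, and with P54 replicate 1 left out it was 0.61.

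Desmocollins pair with desmogleins across the cell gap. Dsc1, the partner of the upper layers, read 11.48 and 11.35 on the P54 arrays against 11.25 and 11.51 on the P59 arrays, a difference of -0.037 (95% interval -0.55 to 0.48, adjusted p = 0.998 in limma). Its order over the arrays was that of Dsg1a: highest in P59 replicate 2, then P54 replicate 1, P54 replicate 2 and P59 replicate 1. A dimmer Dsc1 probe set read 8.99 and 8.22 on the P54 arrays against 9.08 and 9.20 on the P59 arrays. That set was higher at P59 on both arrays, by 0.54, and the mean of both sets differed by 0.25, so the direction for Dsc1 depends on the probe set.

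Dsc2, the widespread desmocollin, read 7.40 and 7.07 on the P54 arrays against 7.08 and 7.72 on the P59 arrays. The difference of 0.16 (95% interval -0.45 to 0.77, adjusted p = 0.971 in limma) was smaller than the gap of 0.64 between the P59 arrays. Without P59 replicate 2 it was -0.16. A dimmer set of Dsc2 differed by 0.18, with overlapping ages. Dsg2 and Dsc2 thus had differences of opposite sign, -0.56 and 0.16, with intervals that overlap.

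Dsc3, the desmocollin of the lower layers, read 12.05 and 12.11 on the P54 arrays against 11.78 and 11.98 on the P59 arrays. Both P59 arrays were lower, by -0.20 on average (SE 0.23, 95% interval -0.71 to 0.30, adjusted p = 0.952 in limma). The difference was -0.30 without P59 replicate 2 and -0.10 without P59 replicate 1. A dimmer Dsc3 set did not follow. It read 9.27 and 8.68 on the P54 arrays and 9.19 in P59 replicate 1, but 6.73 in P59 replicate 2, a gap of -2.31 to the mean of the other 3 arrays. With the mean of both sets Dsc3 differed by -0.61.

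Inside the cell, desmoplakin is the plakin that ties the junction to keratin, and its brightest set varied least of those of the 9 genes. Dsp gave 13.43 and 13.42 on the P54 arrays and 13.29 on both P59 arrays. The replicates of each age were nearly equal (SD 0.0026 at P54 and 0.00026 at P59), and the ages differed by -0.13 (95% interval -0.62 to 0.36, adjusted p = 0.971 in limma). The interval is wide beside the replicates because limma draws each gene's spread toward that of all genes. The second Dsp set read 12.86 and 12.89 on the P54 arrays against 12.80 and 12.79 on the P59 arrays and differed by -0.079, again with ages that did not overlap.

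The third Dsp set showed the widest gap of any probe set of these genes. It gave 11.12 and 10.94 on the P54 arrays, 11.004 on P59 replicate 1 and 5.77 on P59 replicate 2. The gap of P59 replicate 2 to the mean of the other arrays was -5.26 in this set, and -0.088 and -0.063 in the brighter sets of the same gene. Its group difference of -2.65, which brings the mean of the 3 sets to -0.95, comes from 1 array, on which 2 of 16 desmosomal sets above the filter, this one and the dimmer Dsc3 set, were at least 4-fold below the others. On P59 replicate 2, a total of 186 of 17409 probe sets above the filter were as far below, or 1.07%. The counts were 2, 9 and 4 sets on P54 replicates 1 and 2 and P59 replicate 1. In the other direction, 95 sets on P54 replicate 2 were at least 4-fold above the other arrays, or 0.55%. On P54 replicate 1, P59 replicate 1 and P59 replicate 2 there were 4, 21 and 3. For Gapdh the 5′ control set of P59 replicate 2 was at 8.62 against 13.19 to 13.69 elsewhere, and the 3′ control set at 13.20 against 13.39 to 13.93. Where the Dsp and Dsc3 sets lie along their transcripts is not analysed here, and the part of RNA quality in these gaps was not tested.

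**Figure D2:**
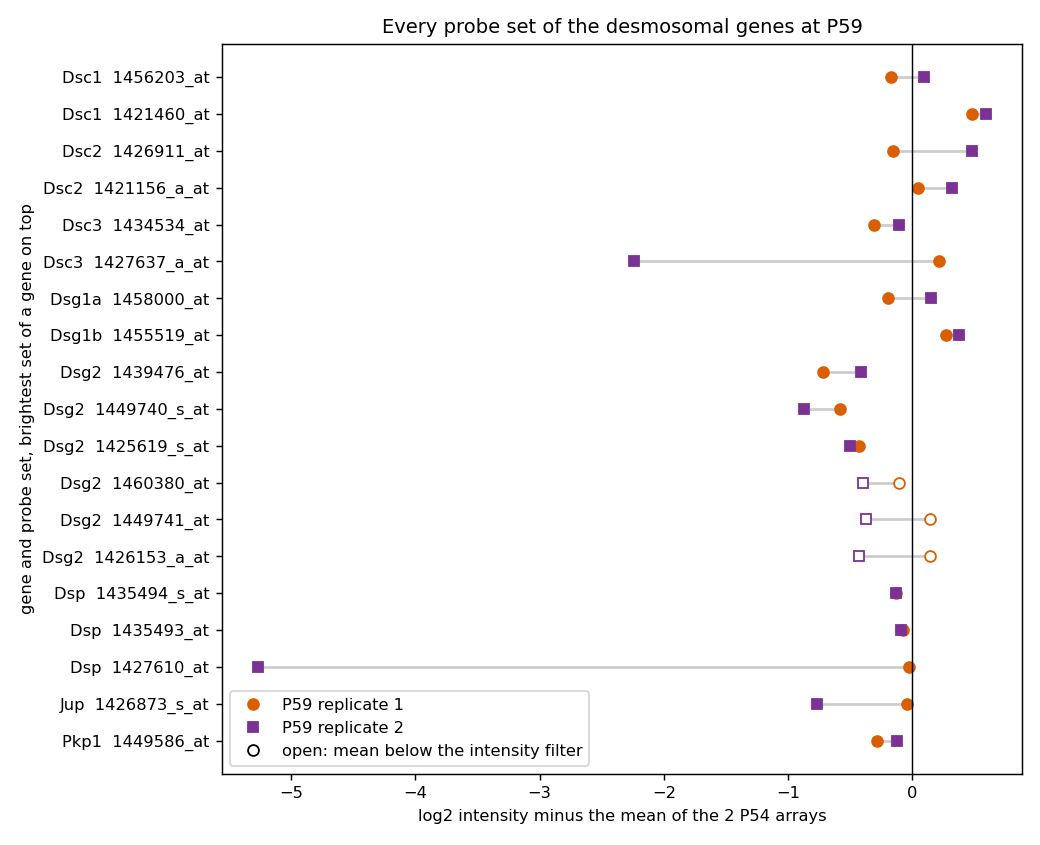
Log2 intensity on each P59 array minus the mean of the P54 arrays (horizontal axis), for each of the 19 probe sets of the desmosomal genes, with open symbols for sets whose mean is below the intensity filter. The 2 points far to the left are the dimmer sets of Dsp and Dsc3 on P59 replicate 2, while the brightest 3 sets of Dsg2 lie left of 0 on both arrays, the third of them filled only through its P54 values.

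Plakoglobin and plakophilin 1 link the cadherin tails to desmoplakin. Jup, which also serves in adherens junctions, gave 10.77 and 11.06 on the P54 arrays, 10.87 on P59 replicate 1 and 10.14 on P59 replicate 2. The low mean at P59 (10.50 ± 0.51 against 10.91 ± 0.20, SD, n = 2 per age) thus came from P59 replicate 2, and P59 replicate 1 lay between the P54 arrays. The difference was -0.41 (SE 0.28, 95% interval -1.03 to 0.22, adjusted p = 0.913 in limma) and -0.045 without P59 replicate 2, but -0.77 without P59 replicate 1. Jup has 1 probe set listed with it alone, so no other set shows whether the gene or the set was low there.

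Pkp1, the plakophilin of the upper epidermis, read 12.77 and 12.85 on the P54 arrays against 12.53 and 12.69 on the P59 arrays. Both P59 arrays were below both P54 arrays, by -0.20 on average (SE 0.22, 95% interval -0.70 to 0.30, adjusted p = 0.952 in limma). Without P59 replicate 2 the difference was -0.29, and without P59 replicate 1 it was -0.12. Pkp1 and Dsc3 had the same difference to 2 decimals.

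The partners of these proteins were set beside them. Of 8 further desmosome genes, 6 had a probe set of their own and were tested, with 4 lower and 2 higher at P59 and a median of -0.19. By the same limits as above 0 passed the adjusted p, 2 had an unadjusted p under 0.05, both lower, and 3 had ages that did not overlap, all lower. Of all genes tested, 3.01% were lower at that unadjusted p and 14.8% were lower without overlap. Without P59 replicate 2, 6 of 6 were lower, with a median of -0.24, and without P59 replicate 1, 3 of 6 were, with a median of -0.13. With arrays centred on their medians 3 of 6 were lower. Of all genes tested, 50.4%, 36.8% and 34.6% were lower in these settings, in that order.

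Plakophilin 3 (Pkp3), the plakophilin found in all layers, read 10.70 and 11.08 on the P54 arrays against 10.47 and 9.95 on the P59 arrays. The difference was -0.68 (95% interval -1.27 to -0.10, adjusted p = 0.669 in limma) and -0.42 without P59 replicate 2. A second Pkp3 set read 9.01, 9.26 and 8.93 on the other arrays and 5.64 on P59 replicate 2. The envelope plakins envoplakin and periplakin anchor desmosomes to the cornified envelope. Evpl read 10.51 and 10.65 on the P54 arrays against 10.29 and 9.61 on the P59 arrays, and Ppl read 11.53 and 11.66 on the P54 arrays against 11.25 and 11.27 on the P59 arrays. Evpl differed by -0.63 (adjusted p = 0.744 in limma), with -0.30 without P59 replicate 2 and -0.97 without P59 replicate 1, and Ppl by -0.33 (adjusted p = 0.908), or -0.34 without P59 replicate 2. Pkp4 differed by 0.11 (-0.19 without P59 replicate 2), and 2 genes named after their values were seen, Pkp2 and the desmosomal membrane protein gene Perp, by 0.035 and -0.044, each with overlapping ages. A second Pkp4 set differed by -0.80, with 7.47 and 7.68 on the P54 arrays, 7.29 on P59 replicate 1 and 6.26 on P59 replicate 2.

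**Figure D3:**
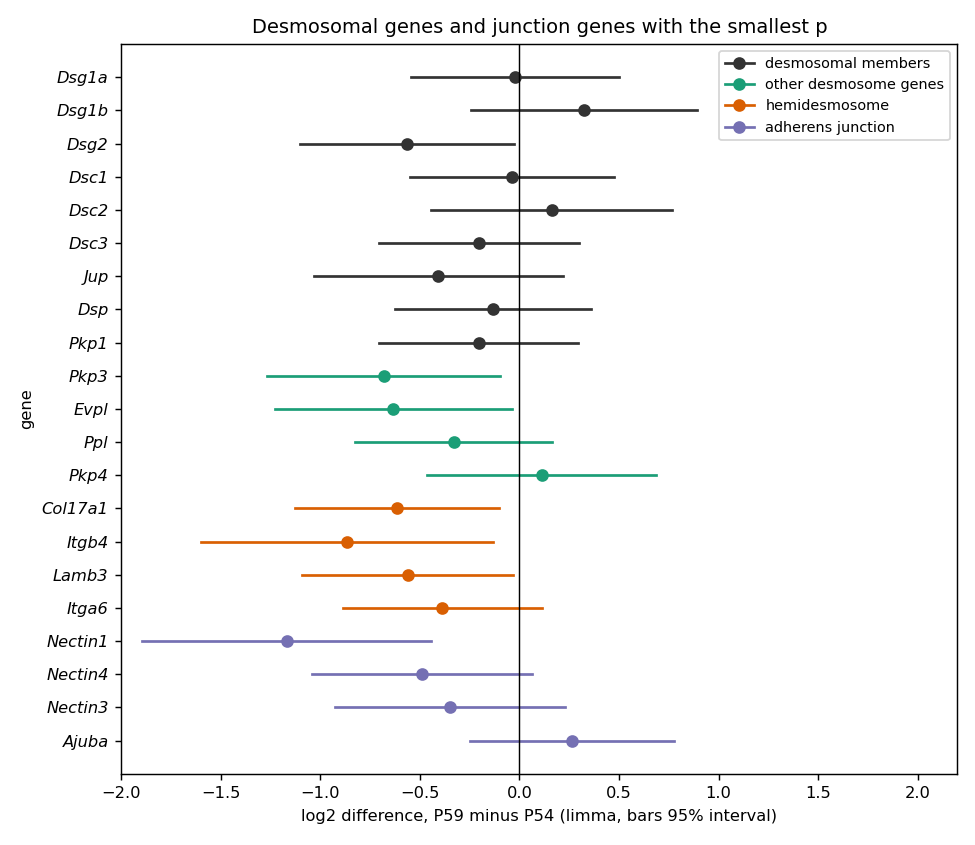
Log2 difference between P59 and P54 (horizontal axis, points) with limma's 95% interval (bars) for the 9 desmosomal genes and for the genes with the smallest p of 3 junction lists. The interval lies wholly below 0 for Dsg2, Pkp3, Evpl, Col17a1, Itgb4, Lamb3 and Nectin1, and no gene shown passed the adjusted threshold.

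Other junctions of keratinocytes were set beside the desmosome, by counts alone. Of 8 tested hemidesmosome genes, which fix basal cells to the basement membrane, 7 were lower at P59, with a median of -0.40 and 3 at an unadjusted p under 0.05: Col17a1 (-0.61), Itgb4 (-0.87, or -0.34 without P59 replicate 2 and -1.40 without P59 replicate 1) and Lamb3 (-0.56). Of 13 adherens junction genes 11 were lower, with a median of -0.16. The gap was widest for the cell adhesion receptor gene Nectin1, which read 7.92 and 8.25 on the P54 arrays against 7.43 and 6.39 on the P59 arrays (-1.17, adjusted p = 0.470 in limma, and -0.65 without P59 replicate 2). Over the 3 probe sets of Nectin1 the difference ran from -1.17 to -0.25. The cadherin and catenins of that junction lay near the desmosomal median, with -0.18 for Cdh1, -0.16 for Ctnnb1 and -0.14 for Ctnnd1. These 3 genes were named after their values were seen.

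Tight junction genes, which seal the granular layer, had a median of -0.10, with 6 of 10 lower. Cldn4 among them read 8.14 and 8.99 on the P54 arrays against 7.61 and 6.28 on the P59 arrays (-1.62, adjusted p = 0.382 in limma, and -0.95 without P59 replicate 2). Gap junction genes had a median of -0.081 over 4 tested. Gjb2 differed by 1.27 (0.22 without P59 replicate 1 and 2.32 without P59 replicate 2), with 9.89 in P59 replicate 1 against 7.54 to 7.79 on the other arrays. Of the genes of corneodesmosomes, the modified desmosomes of the cornified layer, and their proteases and inhibitors, 8 of 11 were lower, with a median of -0.31. Corneodesmosin (Cdsn) differed by -0.46 (adjusted p = 0.801 in limma), while the cathepsin inhibitor gene Cst6 was at 0.69 (adjusted p = 0.585). The protease gene Klk6 was at 0.58 (adjusted p = 0.743 in limma), with 0.37 without P59 replicate 1 and 0.80 without P59 replicate 2. Of 14 transcription factor genes of the epidermis 12 were lower, with a median of -0.22. None of the genes of these 6 lists passed the adjusted threshold in limma. At an unadjusted p under 0.05 there were 3 hemidesmosome, 1 adherens junction and 2 tight junction genes lower, and 0 transcription factor genes in either direction. By the same limit 1 gap junction gene was lower and 1 higher, and 2 corneodesmosome genes were higher and 0 lower. Of all genes tested 3.01% were lower and 3.47% higher by this limit. Without P59 replicate 1 the tight junction median was 0.072, the adherens junction median -0.073 and the transcription factor median -0.040. Without P59 replicate 2 the tight junction median was -0.30, and without P54 replicate 1 or 2 the gap junction median was 0.12 or -0.28. With arrays centred on their medians, 6 hemidesmosome, 10 adherens junction, 5 tight junction, 2 gap junction, 8 corneodesmosome and 11 transcription factor genes were lower. With that scaling 34.6% of all genes tested were lower. No difference between these lists and the desmosomal genes was tested.

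In whole skin, fewer keratinocytes and less of a transcript in each cell cannot be told apart. The basal keratinocyte markers were lower at P59 for 6 of 6 genes, with a mean log2 intensity of 12.43 and 12.49 on the P54 arrays against 12.12 and 11.89 on the P59 arrays. Among them Itga6, Itgb4 and Col17a1 are also in the hemidesmosome list above and are no separate result. The other basal markers, Krt5, Krt14 and Krt15, differed by -0.45, -0.24 and -0.20. The log2 of the summed intensity of all 6 was 15.50 to 15.61 at P54 and 15.17 to 15.26 at P59. The suprabasal markers were lower for 7 of 9 genes, with means of 11.99 and 11.93 on the P54 arrays against 11.74 and 11.80 on the P59 arrays and a log2 sum of 16.52 to 16.56 and of 16.29 to 16.35. The mean difference was -0.19 for the suprabasal and -0.46 for the basal list, beside the desmosomal median of -0.13.

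Markers of the growing follicle, which carries desmosomes of its own, were mostly higher at P59. The inner root sheath list read 7.09 and 5.94 on the P54 arrays against 10.37 and 8.23 on the P59 arrays, with 7 of 8 genes higher and a log2 sum of 11.06 to 11.07 and of 11.83 to 13.70. The hair shaft list read 5.97 and 5.59 on the P54 arrays against 8.19 and 6.45 on the P59 arrays, with 10 of 11 genes higher and a log2 sum of 9.43 to 9.65 and of 10.03 to 11.81. Macrophage markers were higher for 7 of 7 genes, with a log2 sum of 12.65 to 12.84 at P54 and 12.87 to 13.41 at P59. Adipocyte markers were lower for 5 of 6 genes, with sums of 13.94 to 14.10 and of 13.65 to 13.85. Means of Krt2 among the suprabasal markers, Krt73 of the sheath and 5 shaft markers (Krt33a, Krt34, Krt35, Krt86 and Msx2) were below the intensity filter. Krt25, Krt27, Krt28, Krt71 and Tchh of the sheath and Krt31, Krt33b and Krt81 of the shaft exceeded it through P59 alone. Their P54 means were below 6.58, so the rises of the sheath and shaft lists are given as a description. Both P59 samples are labelled late telogen, and the sheath and shaft lists were higher in P59 replicate 1 than in P59 replicate 2. Whether the P59 samples were at the labelled stage, or at the same stage as each other, was not tested. The part of these cell types in the desmosomal differences was not tested.

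**Figure D4:**
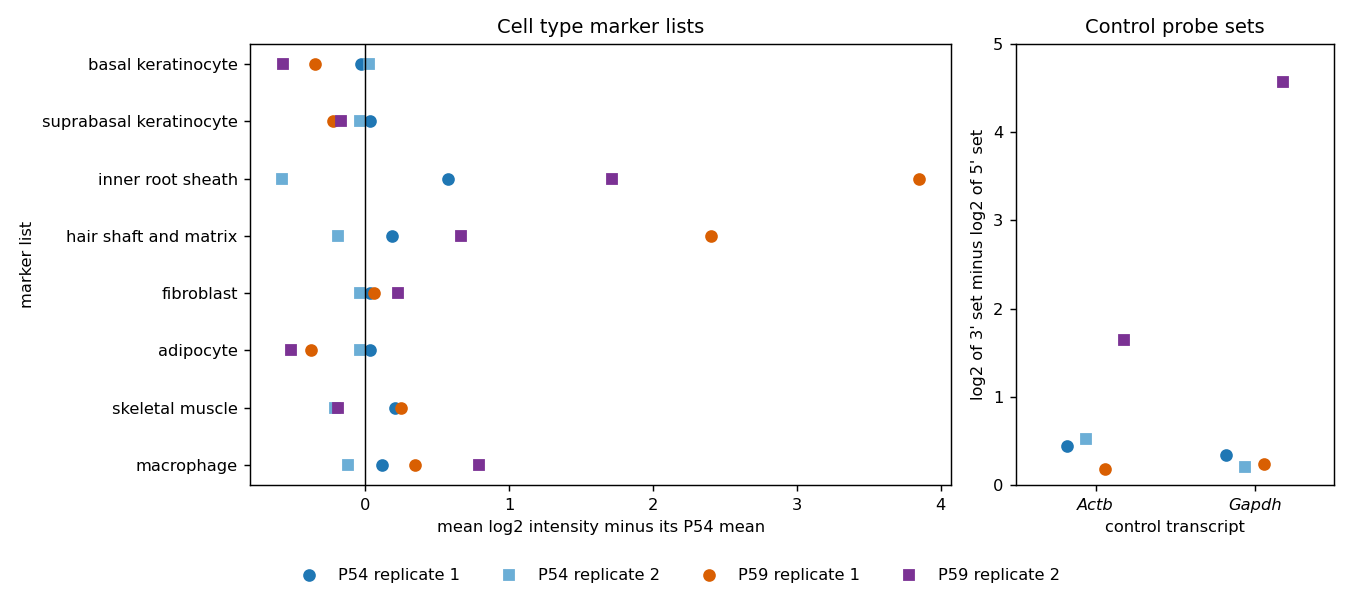
Left, mean log2 intensity of 8 marker lists on each array minus its mean over the P54 arrays (horizontal axis). Right, log2 intensity of the 3′ control probe set minus that of the 5′ set for Actb and Gapdh (vertical axis), where P59 replicate 2 stands at 1.64 and 4.57 and the other arrays at 0.52 or less.

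The mean profile of the 9 genes, each centred on its own mean, was nearly flat, at 0.082 in P54 replicate 1, 0.039 in P54 replicate 2, -0.13 in P59 replicate 1 and 0.012 in P59 replicate 2. Within the set, the profiles of single genes ranged from -0.57 (Jup in P59 replicate 2) to 0.44 (Dsg2 in P54 replicate 2). Of 10907 other genes, those nearest to the mean profile by Euclidean distance over the 4 arrays were 2310033P09Rik (distance 0.012), Exoc6b (0.015), Ptprcap (0.018), Dstn (0.024) and Tfip11 (0.030), where the median distance was 0.39. Each of these 5 differed by -0.12 to -0.098 between the ages. Their closeness to the desmosomal median of -0.13 follows from choosing them by the mean profile and is no separate result.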

How the data were processed

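For the 4 arrays, the authors deposited 1 table of linear intensity values per probe set. The submitters' processing notes name RMA and Affymetrix Expression Console, with versions not given in the sources used here. RMA brings arrays toward a common distribution, so a shift shared by most genes could be hidden. The array medians of the deposited values still differed, from 6.02 in P59 replicate 2 to 6.12 in P54 replicate 2 (log2). The deposited intensities were taken to log2 without a pseudocount. Control sets were left out, and 34945 probe sets with 1 gene symbol in GEO's platform annotation were kept. The set with the highest mean stood for its gene, and genes whose mean log2 intensity exceeded its 40th percentile, 6.58, were tested. The 2 ages were compared by lmFit and eBayes of limma 3.58.1 under R 4.3.3, without covariates and adjusted by Benjamini-Hochberg over 10916 genes. The scripts were tested on simulated data, in 20 runs. There 20.5% of 2-fold and 97.15% of 4-fold changes passed the adjusted threshold, as did 6.25 unchanged genes per run. RefSeq names of GRCm38.p6 were used for names and gene order only.

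The named genes are the 10 members, in each junction list up to 4 genes with the smallest p, 4 keratins and the 5 nearest profiles, and others are said to be chosen after their values were seen. Members and lists were chosen with earlier results of these data known. Alternatives were other filters, probe set rules, scalings, weights, a pseudocount of 16, a replicate block and leaving out each array. The counts of lower genes without each array were added after seeing the data.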

Additional observations from a re-analysis of the deposited data

How the results depend on the processing

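None of the 9 desmosomal genes passed an adjusted p of 0.05 in any of the 120 values recomputed, where the lowest was 0.131 (Jup, limma). The median of the 9 genes kept its sign in each alternative. Dsg2, Dsc3, Dsp, Jup and Pkp1 stayed negative in the alternatives run. Other filters, an intensity trend in limma, array weights and the replicate block left the difference of each gene tested unchanged. With 2 arrays per age these settings can change only p-values and which genes are tested, so they are no check of sign. Dsg1b stayed positive but ran from 0.042 without P54 replicate 2 to 0.61 without P54 replicate 1, and Jup from -0.77 without P59 replicate 1 to -0.045 without P59 replicate 2. Dsc1 turned to 0.25 with the mean of its probe sets, 0.54 in its second brightest set and 0.0100 with arrays centred on the median, when Dsg1a turned to 0.024. With 1 array left out Dsc1 ranged from -0.17 to 0.095, Dsg1a from -0.20 to 0.15 and Dsc2 from -0.16 to 0.48. With the replicate block the difference of Dsg2 was thus still -0.56, with an adjusted p of 0.805 in limma. The labels give replicate numbers without saying that they pair the samples. Same-numbered deviations correlated at -0.037 across genes. With 2 arrays per age this compares only the replicate gap of each age and cannot decide whether the samples are paired. The count of genes past the adjusted threshold, 2 in the main comparison, was 156 with the replicate block, 9 with array weights and 49 with arrays centred on the median. It was 0 with no filter, a stricter filter, the mean of probe sets, each probe set, repeated quantile normalization or a pseudocount, and 457 to 1122 genes or probe sets then had an unadjusted p below 0.05 in limma. With any 1 array removed it ran from 29 to 402, where the lone array of an age is assumed to vary like the others. Genes 1.5-fold lower at an unadjusted p under 0.05, 276 in the main comparison, were 623 when each probe set was tested and 169 to 875 with 1 array left out. The cause of these shifts was not tested.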
